A study of Homo sapiens with 6 samples.

Results

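The genes described here form the transcriptional core of the integrated stress response and its feedback. They are the transcription factor genes ATF4, ATF5, ATF3, DDIT3, CEBPB and CEBPG, the pseudokinase gene TRIB3, the eIF2 phosphatase subunit genes PPP1R15A and PPP1R15B, and GDF15, which encodes a secreted stress cytokine. They were chosen by symbol, and all 10 were found among the 21429 Ensembl gene rows of the deposited expression table. RNA was sequenced from U251 cells, an established human glioma line, carrying a stably expressed mutant amyloid precursor protein (APP K670N/M671L) that is induced by doxycycline. By electroporation, 3 cultures received a control siRNA (siNC) and 3 an siRNA against RPL13, a protein of the large ribosomal subunit (siRPL13). Every culture in both groups carried the mutant precursor, received doxycycline at 1 µg/mL with fresh medium at 24 h, and was harvested at 72 h. Only 1 cell line was used, and the sources used here do not say whether it is a single clone.

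In this response, stress-activated kinases phosphorylate the alpha subunit of the initiation factor eIF2, which lowers general protein synthesis while favouring translation of a few messages with upstream open reading frames, ATF4 among them. ATF4 pairs with other basic leucine zipper proteins and switches on genes for amino acid supply, redox balance and further stress factors. PPP1R15A, induced by stress, and PPP1R15B, which is present without it, each bring protein phosphatase 1 to eIF2 and reverse the phosphorylation. Much of the control of ATF4, ATF5, DDIT3 and PPP1R15A lies in translation, which transcript levels do not show.

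Each value below is a regularized-log (rlog) value, a log2-scale expression value that the authors scaled for library size and pulled towards each gene's mean. Read depth per library is unknown. The library medians over the 15327 genes tested (mean rlog of at least 3) ran from 9.12 to 9.13, and all 10 genes were among those tested. For RPL13 itself, siNC replicates 1 to 3 had 14.05, 14.16 and 14.18, siRPL13 replicates 1 and 2 had 13.03 and 13.12, yet the library labelled siRPL13 replicate 3 had 14.09. The targeted transcript was thus not lowered in that library, so the 10 genes are described with all 6 libraries and without it. The latter, with 2 siRPL13 and 3 siNC libraries, is called the 5-library comparison; it was chosen because of the RPL13 values, and "rose" and "fell" refer to it (limma, Benjamini-Hochberg adjusted p under 0.05). Of the 10 glioma and astrocyte markers, VIM, CD44, GFAP, NES, SOX2, SOX9 and SLC1A3 had siNC means from 11.31 to 16.23. S100B had 5.66 and ALDH1L1 0.78, and AQP4 had no row. VIM and NES differed by -0.31 and -0.34 in the 5-library comparison, past its threshold. With all 6 libraries they differed by -0.29 and -0.25, and neither passed. Of 8 leukocyte and 6 epithelial markers, 4 of each had a row; the highest siNC means were 5.02 for CSF1R and 8.08 for KRT18, while CD68 and CDH1 stood at 0.37 and 0.43. In bulk RNA, fewer cells with a transcript and less transcript per cell cannot be told apart.

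The 10 genes did not move as a block. With all 6 libraries, 0 of 10 passed the test, as did 0 of 15327 genes (0% called); 1 of 10, PPP1R15A, had an unadjusted p under 0.05, against 8.32% of all genes. In the 5-library comparison 3 genes fell (ATF4, TRIB3 and GDF15), 1 rose (PPP1R15A) and 6 did not pass. Over all genes tested 10.7% fell and 8.42% rose in that comparison. The median log2 difference of the 10 genes was -0.11 against -0.00 for all genes tested, and -0.06 against -0.00 with all 6 libraries.

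**Figure D1:**
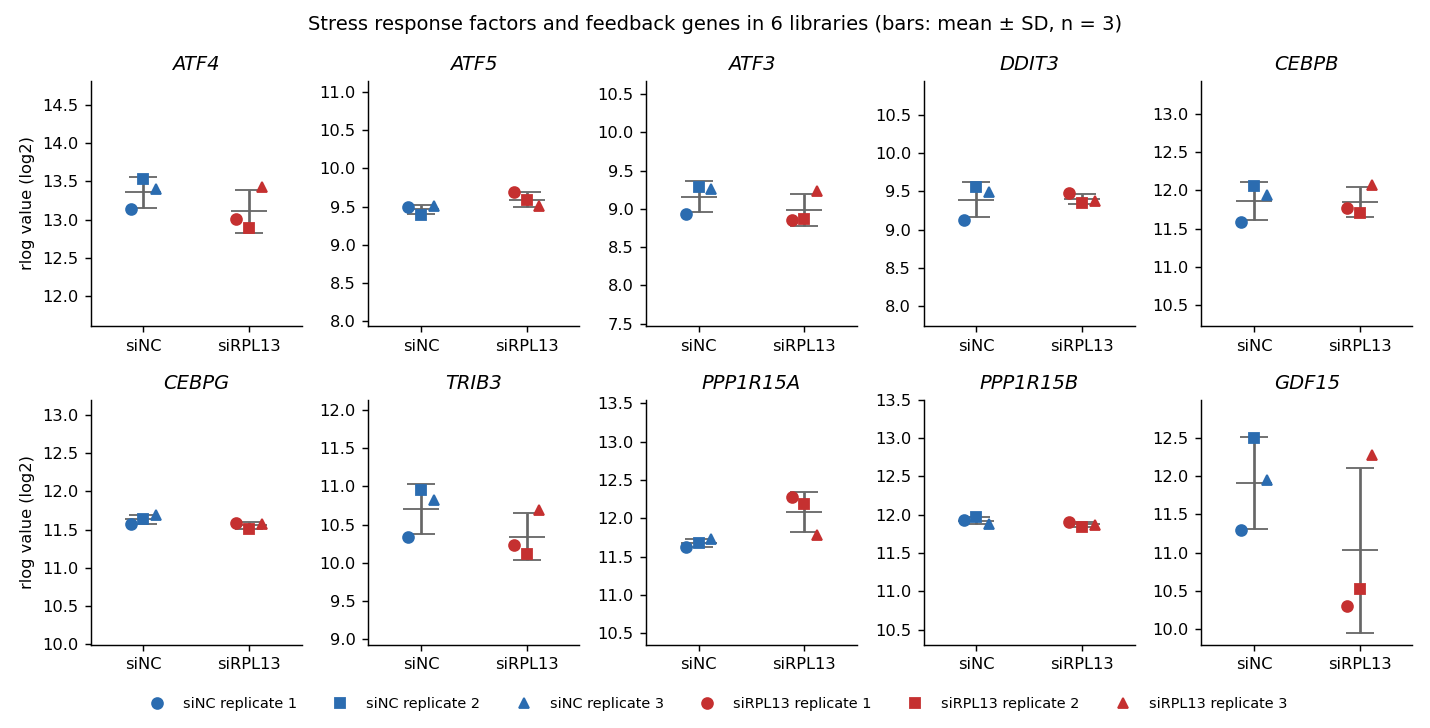
Level of each of the 10 genes in the 6 libraries in rlog units, which are log2 (vertical axes all cover an equal span and do not start at 0). Points are libraries, siNC in blue and siRPL13 in red, with shape for the replicate number, and bars give the mean ± SD of 3 libraries; GDF15 spans 2.19 log2 units and PPP1R15B 0.12.

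PPP1R15A and PPP1R15B, the regulatory subunits that share the task of eIF2 dephosphorylation, are shown first by the sequence before their transcription starts. Whether this sequence bears on the level of either gene was not tested. PPP1R15A lies on GRCh38 chromosome 19 (48872392 to 48876057, plus strand) and PPP1R15B on chromosome 1 (204403387 to 204411791, minus strand). The lines below give the RefSeq sequence (GRCh38.p14) of chr19:48872171-48872391 on the plus strand, which ends 30 bases before the RefSeq start where an annotated exon begins, and of chr1:204411818-204412067 on the minus strand, which ends at the base before the start. Capitals mark TGACGT, the core of the cAMP response element, with the full palindrome TGACGTCA where it occurs, and TGATGNAA, the core of the composite C/EBP-ATF element, each searched on both strands.
PPP1R15A: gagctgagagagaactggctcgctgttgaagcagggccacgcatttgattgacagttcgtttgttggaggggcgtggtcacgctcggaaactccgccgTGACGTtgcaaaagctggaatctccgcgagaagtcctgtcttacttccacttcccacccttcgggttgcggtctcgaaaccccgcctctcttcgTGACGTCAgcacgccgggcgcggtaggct
PPP1R15B: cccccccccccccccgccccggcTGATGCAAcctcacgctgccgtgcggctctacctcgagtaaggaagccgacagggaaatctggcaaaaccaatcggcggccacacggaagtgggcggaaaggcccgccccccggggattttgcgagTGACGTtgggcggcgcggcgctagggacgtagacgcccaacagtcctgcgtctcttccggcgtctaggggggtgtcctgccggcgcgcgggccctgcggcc
PPP1R15A holds TGACGT at 152 and at 58 bases before the start, the second as the full TGACGTCA. PPP1R15B holds TGACGT at 101 bases and TGATGCAA at 227 bases before the start. Within 250 bases before a start, TGACGTCA occurs in 2.03% and TGACGT in 8.62% of 27305 genes in the RefSeq table. Of the 10 genes, 1 holds TGACGTCA and 2 hold TGACGT. Both motifs were chosen after these windows had been read, so the shares cannot serve as a test. These letters are a description of the windows and show no binding.

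PPP1R15A was the gene of the 10 that rose. The siNC replicates 1 to 3 had 11.63, 11.68 and 11.73, siRPL13 replicates 1 and 2 had 12.27 and 12.19, whereas the library labelled siRPL13 replicate 3 had 11.78. All 3 siRPL13 libraries lay above all 3 siNC libraries, the labelled replicate 3 by the least. It was the only 1 of the 10 whose groups were apart with 6 libraries, where 6.92% of all genes tested were higher, 6.90% lower and 13.8% either way without overlap. The log2 difference was 0.55 ± 0.05 (SE) in the 5-library comparison, or 146% of siNC on the rlog scale, with an adjusted p of 0.000274 (limma). With all 6 libraries it was 0.40 ± 0.12 with an adjusted p of 0.589 and an unadjusted p of 0.00860. Only 55 of the 15327 genes tested had a larger rise in the 5-library comparison.

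PPP1R15B, by contrast, stood between 11.84 and 11.97 in all 6 libraries, the narrowest span of the 10 genes. The siNC libraries had 11.93, 11.97 and 11.87, siRPL13 replicates 1 and 2 had 11.90 and 11.84, whereas the library labelled siRPL13 replicate 3 had 11.87. The groups overlapped, and the 95% interval of the 5-library difference ran from -0.16 to 0.06 (adjusted p 0.544, limma). The 6-library difference was -0.05 ± 0.05 (adjusted p 0.771). Taken within each library, PPP1R15A minus PPP1R15B, relative to its siNC mean, was -0.05, -0.05 and 0.10 in siNC, then 0.61 and 0.59 for siRPL13 replicates 1 and 2, with the library labelled siRPL13 replicate 3 at 0.15. This difference was picked after the values had been seen and is given without a test. The catalytic subunits that these proteins recruit did not pass: PPP1CA differed by -0.09 (95% interval -0.20 to 0.01), PPP1CB by -0.12 (-0.29 to 0.04) and PPP1CC by -0.04 (-0.19 to 0.12). They again did not pass with all 6 libraries, at -0.06, -0.15 and -0.06 in that order.

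ATF4, the central transcription factor of the response (chromosome 22, 39519695 to 39522685, plus strand), was modestly lower. The siNC libraries had 13.13, 13.53 and 13.41, siRPL13 replicates 1 and 2 had 13.01 and 12.89, whereas the library labelled siRPL13 replicate 3 had 13.43. That library lay inside the siNC range, while the other siRPL13 libraries lay below it, with siNC replicate 1 the nearest. ATF4 fell by 0.40 ± 0.09 (SE, log2; adjusted p 0.0142, limma), to 75.6% of siNC on the rlog scale. Over all 6 libraries the difference was -0.25 ± 0.15 with an adjusted p of 0.626. The 5-library call was lost on leaving out siRPL13 replicate 1 or siRPL13 replicate 2 (adjusted p 0.0903 and 0.131).

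TRIB3 encodes a pseudokinase that ATF4 and DDIT3 induce and that in turn restrains ATF4 activity (chromosome 20, 362835 to 397559, plus strand). The siNC libraries had 10.33, 10.96 and 10.82, siRPL13 replicates 1 and 2 had 10.23 and 10.11, whereas the library labelled siRPL13 replicate 3 had 10.69. The siNC libraries themselves spanned 0.62, with replicate 1 low and close to siRPL13 replicate 1. TRIB3 fell by 0.53 ± 0.14 (SE, log2; adjusted p 0.0234, limma). The 6-library difference was -0.36 ± 0.19 with an adjusted p of 0.596. The 5-library call was lost with a robust variance trend (adjusted p 0.190) and on leaving out siNC replicate 2, siNC replicate 3, siRPL13 replicate 1 or siRPL13 replicate 2 (adjusted p 0.0562, 0.0662, 0.119 and 0.146). Relative to ATF4 within each library, TRIB3 ran from -0.15 to 0.08 in siNC and was -0.13 and -0.13 for siRPL13 replicates 1 and 2, with the library labelled siRPL13 replicate 3 at -0.08, so the groups overlapped.

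GDF15, the secreted readout of the group (chromosome 19, 18374731 to 18389176, plus strand), had the widest range and the largest difference. The siNC replicates 1 to 3 had 11.29, 12.49 and 11.95, siRPL13 replicates 1 and 2 had 10.30 and 10.52, whereas the library labelled siRPL13 replicate 3 had 12.27. The siRPL13 libraries were therefore both the lowest 2 and the second highest of the 6. GDF15 fell by 1.50 ± 0.24 (SE, log2; adjusted p 0.00286, limma), to 35.3% of siNC, and only 6 of the 15327 genes tested had a larger fall. With all 6 libraries the difference was -0.88 ± 0.49 with an adjusted p of 0.609. The 5-library call was lost with a robust variance trend (adjusted p 0.122) and on leaving out siRPL13 replicate 1 (0.0549).

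GDF15 is also known as a target of p53. Of 15 other p53 target genes, 3 fell, 1 rose and 11 did not pass, with a median log2 difference of -0.10. The shares over all genes tested were 10.7% that fell and 8.42% that rose. CDKN1A, the cyclin-dependent kinase inhibitor, fell by 0.77 ± 0.09 (SE, log2), XPC, a DNA damage sensor, by 0.34 ± 0.06 and BTG2, an antiproliferative factor, by 0.29 ± 0.07, while ZMAT3, an RNA-binding protein, rose by 0.81 ± 0.08. None of the 15 passed with all 6 libraries, where CDKN1A, XPC and BTG2 differed by -0.46, -0.20 and -0.20 and ZMAT3 by 0.42. For CDKN1A, the library labelled siRPL13 replicate 3 had 11.70, above every siNC library (11.33 to 11.68), while siRPL13 replicates 1 and 2 had 10.72 and 10.79. On also leaving out siRPL13 replicate 1, the count that fell was 1, and without siNC replicate 1 it was 5. The part of these genes' change in that of GDF15 was not tested. GDF15 was the 1 gene of the 10 whose values spanned at least 1 log2 unit, and for it the genes with the most similar profile over the 6 libraries were sought among 12847 others with a mean rlog of at least 5. The nearest were DDIT4, an inhibitor of mTORC1 signalling, at a root mean square distance of 0.25 log2 units, CHAC1, a glutathione-degrading enzyme, at 0.31, and PADI3, a peptidylarginine deiminase, at 0.34. DDIT4 and CHAC1 were also among the nearest 3 over 5 libraries, and PADI3 was not.

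**Figure D2:**
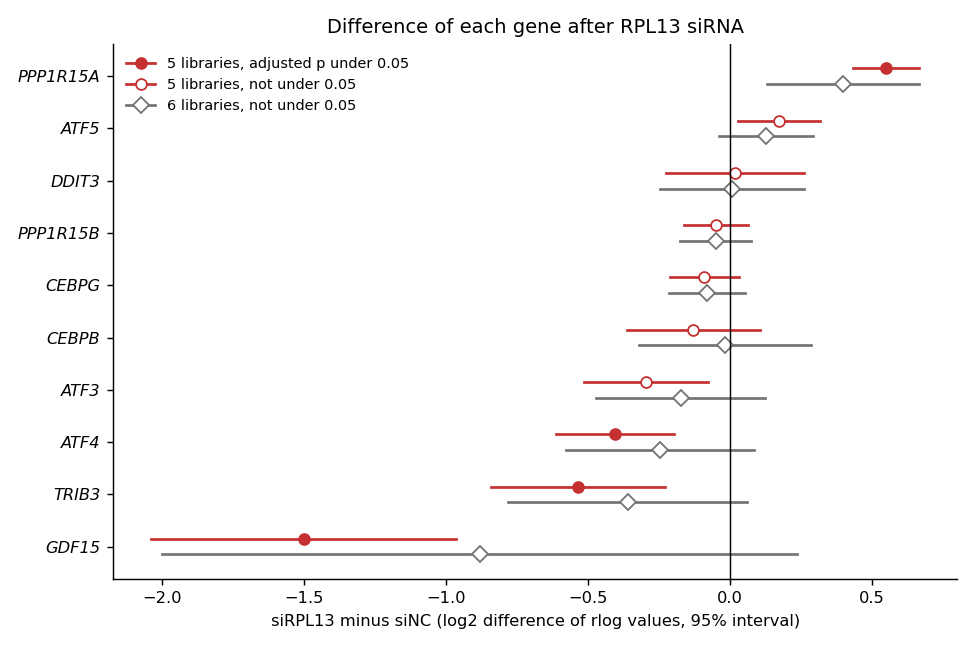
Log2 difference of rlog values, siRPL13 minus siNC, for each of the 10 genes with its 95% interval (limma), in the 5-library comparison (red circles, filled where the adjusted p is under 0.05) and with all 6 libraries (grey diamonds). GDF15 lies at -1.50 and PPP1R15A at 0.55 in the 5-library comparison, and no gene passed with all 6 libraries.

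ATF3, a repressive partner induced by stress (chromosome 1, 212565334 to 212620777, plus strand), stood at 8.93, 9.29 and 9.26 in siNC and at 8.85, 8.87 and 9.23 in siRPL13 replicates 1 to 3. Again siNC replicate 1 was close to siRPL13 replicates 1 and 2, and the library labelled siRPL13 replicate 3 close to the other siNC libraries. Its 5-library difference of -0.30 ± 0.10 (SE) did not pass (adjusted p 0.0601, limma) and had a 95% interval of -0.51 to -0.08. Its 6-library difference was -0.17 ± 0.13 (adjusted p 0.674). Without siNC replicate 1, and with library weights estimated by limma, the adjusted p was 0.00179 and 0.00584.

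DDIT3 encodes CHOP, a factor of the late response (chromosome 12, 57516588 to 57521737, minus strand). The siNC libraries had 9.13, 9.56 and 9.50, siRPL13 replicates 1 and 2 had 9.48 and 9.35, whereas the library labelled siRPL13 replicate 3 had 9.38. All 3 siRPL13 libraries lay inside the siNC range. The 5-library difference was 0.02 ± 0.11 (SE), with a 95% interval of -0.22 to 0.26, and its sign changed with the setting. For 6 libraries the difference was 0.01 ± 0.11 (adjusted p 0.986). Within each library, DDIT3 minus ATF4, relative to its siNC mean, ran from -0.04 to 0.05 in siNC and was 0.43 and 0.42 for siRPL13 replicates 1 and 2, with the library labelled siRPL13 replicate 3 at -0.08. It is given without a test and, as DDIT3 itself differed by 0.02, mostly restates the fall of ATF4. DDIT3 overlaps the oppositely oriented MARS1, a methionyl-tRNA synthetase gene with a mean rlog of 12.52 and a 5-library difference of -0.49. The sources used here do not say whether strand was kept in counting, so reads of the overlap cannot be told apart and the DDIT3 values are uncertain.

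ATF5, a close relative of ATF4 under similar translational control (chromosome 19, 49928702 to 49933935, plus strand), went the other way from ATF4 by a margin that did not pass. The siNC libraries had 9.49, 9.39 and 9.50, siRPL13 replicates 1 and 2 had 9.69 and 9.58, whereas the library labelled siRPL13 replicate 3 had 9.50; the groups were apart only without that library. The 5-library difference was 0.17 ± 0.07 (SE; 95% interval 0.03 to 0.32, adjusted p 0.0898, limma), and 0.13 ± 0.07 with all 6 libraries (adjusted p 0.609). ATF5 minus ATF4 within each library relative to its siNC mean, ranged from -0.24 to 0.25 in siNC and was 0.57 and 0.58 for siRPL13 replicates 1 and 2. For this pair the library labelled siRPL13 replicate 3 was at -0.03, inside the siNC range. The pair is given without a test and restates the differences of ATF5 and ATF4. ATF5 overlaps NUP62 on the opposite strand, a nucleoporin gene with a mean rlog of 12.13, so its reads carry the uncertainty named for DDIT3.

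**Figure D3:**
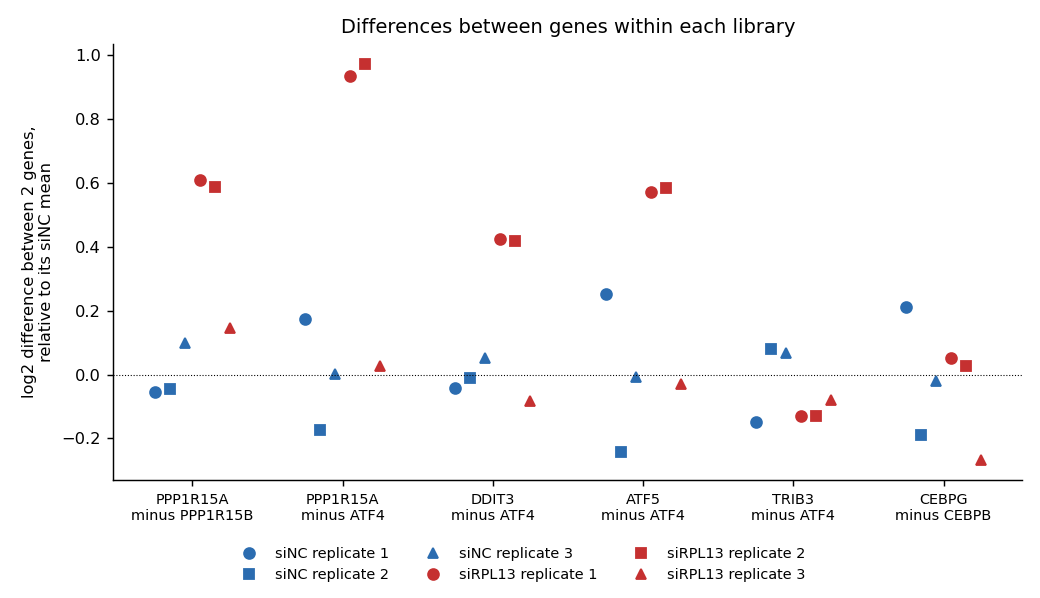
Log2 difference between the rlog values of 2 genes within each library, relative to its mean in siNC (vertical axis), for 6 pairs, with siNC in blue, siRPL13 in red and shape for the replicate number. PPP1R15A minus ATF4 lies between -0.18 and 0.17 in siNC and at 0.93 and 0.97 for siRPL13 replicates 1 and 2, with the library labelled siRPL13 replicate 3 at 0.03. No pair was tested, and each restates the differences of its 2 genes.

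The C/EBP members, which pair with ATF4 on composite elements, did not pass. CEBPB (chromosome 20, 50190734 to 50192689, plus strand) stood at 11.59, 12.06 and 11.94 in siNC and at 11.77, 11.70 and 12.07 in siRPL13 replicates 1 to 3, the last above every siNC library. Its 95% interval in the 5-library comparison ran from -0.36 to 0.11 (adjusted p 0.433, limma), and without siNC replicate 1 the difference was -0.26 with an adjusted p of 0.00579. The CEBPB difference over 6 libraries was -0.02 ± 0.13 (adjusted p 0.975). CEBPG (chromosome 19, 33373330 to 33382686, plus strand) stood between 11.50 and 11.69 in all 6 libraries. Its 95% interval ran from -0.21 to 0.03 (adjusted p 0.285, limma), and the difference with all 6 libraries was -0.08 ± 0.06 (adjusted p 0.667).

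Across the 10 genes, siNC replicate 1 lay below the siNC mean for 8, and the library labelled siRPL13 replicate 3 lay inside the siNC range for 6, above it for 2 (CEBPB and PPP1R15A) and below it for 2 (CEBPG and PPP1R15B). In the 5-library comparison 4 genes were lower and 2 higher without overlap, where 26.6% and 24.7% of all genes tested were, or 51.3% either way. Levels were compared between genes after subtracting log2 of the exonic length in kilobases. That length counts once each base in an exon of any annotated transcript. It can exceed the length of the message present in these cells, which was not measured, so the order is approximate. On that scale the siNC means ran from 12.03 for ATF4, through 10.89 for CEBPB, 10.85 for GDF15, 10.05 for PPP1R15A, 9.54 for PPP1R15B, 9.50 for CEBPG, 9.01 for DDIT3, 8.92 for TRIB3 and 7.90 for ATF5, to 7.14 for ATF3. The siNC values of CEBPB and GDF15, of PPP1R15B and CEBPG, and of DDIT3 and TRIB3 overlapped, so those neighbours were not separated.

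The composite C/EBP-ATF element was looked for before the starts of all 10 genes, which had 19 windows in the RefSeq table, to see which genes share it. The longer form TGATGNAAT was in 0 of the 10 genes and in 1.09% of all genes in the table. The core TGATGNAA was in 3 of 10 and in 3.89%. Genes differ in their number of windows. Counted by window, the core was in 3 of 19 and in 3.14% of all 35116 windows, and the longer form in 0 of 19 and in 0.888%. The sites are shown for those 3 genes, with the core in capitals, on the strand of the gene (GRCh38.p14, chr1:212565205-212565234 for ATF3, chr19:33374060-33374089 for CEBPG and chr1:204412026-204412055 for PPP1R15B).
ATF3: aaaggtcaggaTGATGGAAggctgtcatat
CEBPG: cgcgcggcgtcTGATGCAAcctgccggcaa
PPP1R15B: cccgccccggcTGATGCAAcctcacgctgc
The CEBPG site lies inside the annotated span of the gene, upstream of a start in the RefSeq table. The core begins 191 bases before an ATF3 start, 42 before a CEBPG start and 227 before the PPP1R15B start. None of these 3 genes passed the test in the 5-library comparison. A match is no evidence of binding, and its absence from the other windows says only that these letters are not there.

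Upstream of the factors, genes of eIF2 phosphorylation and exchange showed small differences in both directions. Of 22 genes for the kinases, eIF2, its exchange factor eIF2B and accessory proteins, 4 rose, 2 fell and 16 did not pass. Their median was 0.06, and of all genes tested 8.42% rose and 10.7% fell. EIF2AK2 encodes PKR, the interferon-induced kinase that senses double-stranded RNA, and fell by 0.48 ± 0.12 (SE, log2; adjusted p 0.0219, limma). The siNC libraries had 13.34, 13.49 and 12.98, siRPL13 replicates 1 and 2 had 12.64 and 12.93, whereas the library labelled siRPL13 replicate 3 had 13.53, the highest of the 6. EIF2AK4, encoding the amino acid sensor GCN2, rose by 0.20 ± 0.06 (adjusted p 0.0466, limma). EIF2AK1, the heme-regulated kinase, and EIF2AK3, the endoplasmic reticulum kinase PERK, did not pass, with 95% intervals of -0.19 to 0.04 and -0.10 to 0.24. EIF2D, a non-canonical initiation factor, rose by 0.41 ± 0.06, EIF2B4, a subunit of the exchange factor, by 0.27 ± 0.05 and EIF2A, another non-canonical factor, by 0.25 ± 0.06, while EIF2S2, the beta subunit of eIF2, fell by 0.24 ± 0.06. On also leaving out siRPL13 replicate 1, 0 of the 22 passed in either direction; on leaving out siRPL13 replicate 2 in its place, 1 was higher and 1 lower. None of the 22 passed with all 6 libraries, where the median was 0.01. There EIF2AK1, EIF2AK2, EIF2AK3 and EIF2AK4 differed by -0.09, -0.23, 0.03 and 0.10. EIF2D, EIF2B4 and EIF2A differed by 0.26, 0.16 and 0.14, and EIF2S2 by -0.21.

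Downstream, most of the genes that ATF4 and DDIT3 are known to induce, many of them enzymes and transporters of amino acid supply, fell in the 5-library comparison. Of 33 effector targets tested, 27 fell, 0 rose and 6 did not pass. The list was chosen with earlier results of these data known. It named 35 genes, of which ADM2 and FGF21 had no row. Over all genes tested, 10.7% fell and 8.42% rose. The median of the targets was -0.45 against -0.00 for all genes tested. DDIT4 fell by 1.19 ± 0.24 (SE, log2) and CHAC1 fell by 1.04 ± 0.26. CBS, which makes cystathionine on the way to cysteine, fell by 1.09 ± 0.11. PSAT1, the aminotransferase of the serine pathway, fell by 1.01 ± 0.11. SLC7A11 and SLC3A2, the light and heavy chains of the cystine transporter, did not pass, at 0.00 ± 0.06 and -0.00 ± 0.07, and at -0.04 and 0.04 with all 6 libraries. The other amino acid transporter genes of the list, SLC7A5 and SLC38A2, fell by 0.93 ± 0.14 and 0.33 ± 0.05. With all 6 libraries they differed by -0.61 and -0.25. Relative to siNC, the median of the list was -0.19, 0.14 and 0.05 in siNC replicates 1 to 3 and -0.50 and -0.48 for siRPL13 replicates 1 and 2, with the library labelled siRPL13 replicate 3 at -0.06. The count that fell became 11 with siRPL13 replicate 1 also left out and 18 with siRPL13 replicate 2 left out, and 0 of 33 passed with all 6 libraries. The median was then -0.34, with DDIT4 at -0.80, CBS at -0.77, PSAT1 at -0.73 and CHAC1 at -0.64.

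**Figure D4:**
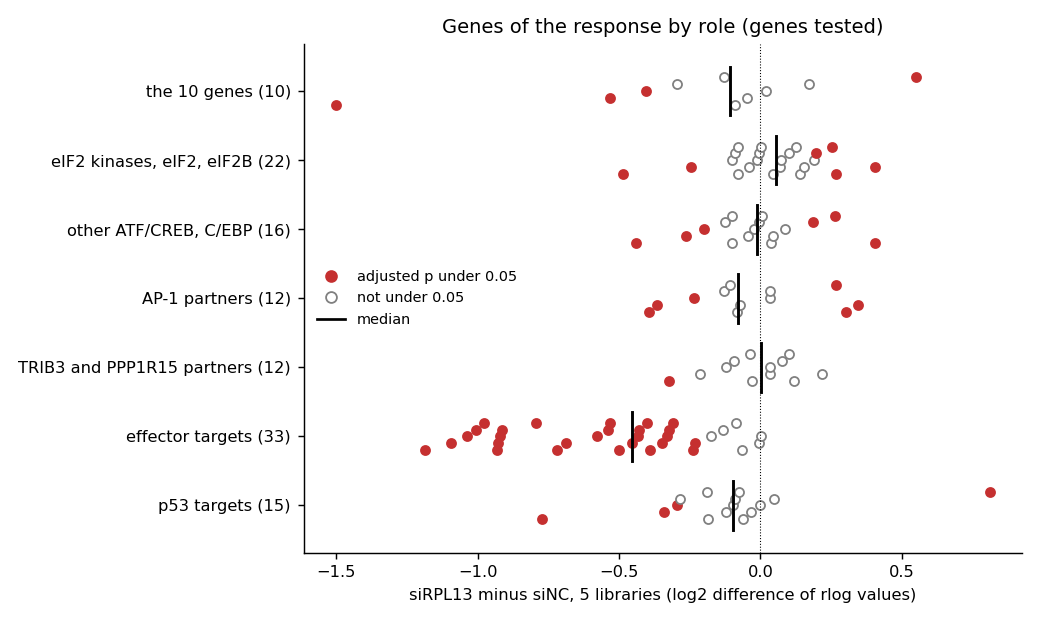
Log2 difference, siRPL13 minus siNC, in the 5-library comparison (horizontal axis) for the 10 genes and for 6 lists of related genes, with one point per gene tested, filled red where the adjusted p is under 0.05 (limma), and a black bar at each median. The effector targets have a median of -0.45 with 27 of 33 genes falling, whereas the median of the eIF2 kinase, eIF2 and eIF2B list is 0.06. Over all genes tested, 10.7% fell. The lists were chosen with earlier results of these data known.

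Relatives of the factors were mixed. Of 16 other ATF/CREB and C/EBP genes tested, 3 rose, 3 fell and 10 did not pass, with a median of -0.01. The shares over all genes tested were 8.42% that rose and 10.7% that fell. On also leaving out siRPL13 replicate 1, 0 of the 16 passed in either direction; on leaving out siRPL13 replicate 2 in its place, 2 were higher and 0 lower. None of the 16 passed with all 6 libraries, where JDP2 differed by -0.29, CEBPD by -0.10, CREB3L2 by -0.19, BATF3 by 0.35 and CREB3 by 0.20. JDP2, a repressor related to ATF3, fell by 0.44 ± 0.12 (SE, log2), CEBPD, an inflammatory C/EBP factor, by 0.26 ± 0.08 and CREB3L2, a membrane-bound factor of the secretory pathway, by 0.20 ± 0.05. BATF3, which like JDP2 dimerizes with JUN proteins, rose by 0.40 ± 0.08 and CREB3, another membrane-bound factor, by 0.26 ± 0.05. BATF3 was above every siNC library in all 3 siRPL13 libraries, at 8.72, 8.58 and 8.49 against 8.16, 8.37 and 8.21. Among 12 partners and relatives of TRIB3 and the PPP1R15 proteins, 1 fell and 11 did not pass. The gene that fell was EGLN3, a prolyl hydroxylase that acts on ATF4 as well as on hypoxia-inducible factors, by 0.32 ± 0.08. It did not pass with all 6 libraries (-0.21) or on also leaving out siRPL13 replicate 1 or siRPL13 replicate 2. TRIB2, a relative of TRIB3, differed by 0.22 ± 0.07 and did not pass (adjusted p 0.0607, limma).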

How the data were processed

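RNA-seq libraries of 6 U251 cultures were analysed, 3 per group, with groups and replicate numbers from the labels. The deposited table holds rlog values on the log2 scale that the authors made, per its name; they are not counts, so no count model was used and low genes' differences are understated. Build GRCh38.p7 and the tools DESeq2, HTSeq 0.6.1p1, TopHat and Trimmomatic 0.33 are listed, without roles or settings, per the submitters' processing notes. Per the labels' protocols, 2.5 µL of siRNA at 20 µM was electroporated.

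Symbols came from a gene name table (20499 of 21429 identifiers) and GENCODE 29, which gave positions and exonic lengths; promoter windows came from RefSeq. The 15327 genes whose mean rlog reached 3 were fitted two-sided with limma 3.58.1 (R 4.3.3; lmFit, eBayes with trend), and p was adjusted over all of them by Benjamini-Hochberg (threshold 0.05). The fit was tested on simulated data in which every siRPL13 library carried the added differences. That test therefore does not cover a library like the one labelled siRPL13 replicate 3. The labels call the libraries biological replicates without naming separate cultures' origin, so p-values reflect only the spread among them, which may be technical. The genes, lists and the 5-library comparison were chosen with earlier results of these data known, and the TGACGT motifs after the windows had been read. Named were the 10 genes, the kinases and catalytic subunits, up to 4 genes past the threshold in a list's main direction and 2 in the other, and the 3 nearest profiles. Chosen outside this rule after their values were seen were MARS1, NUP62, SLC7A11, SLC3A2, SLC7A5, SLC38A2 and TRIB2. Alternatives were other filters (none, or 5), quantile and median scaling, no or a robust trend, library weights, the replicate block and leaving out each library. Figures used matplotlib 3.10.9.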

Additional observations from a re-analysis of the deposited data

How the results depend on the processing

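With all 6 libraries the counts of genes past the threshold, 0 higher and 0 lower among the 10 genes, the related lists and all genes, stayed at 0 under every alternative except library weights and leaving out the library labelled siRPL13 replicate 3. Library weights, whose estimation did not converge there, gave 1 higher and 5 lower of the 10, 14 and 46 in the related lists and 2601 and 2708 of all genes. Leaving out 1 library each gave 0 to 1 higher and 0 to 3 lower of the 10, 0 to 11 and 0 to 39 in the related lists, and 0 to 1291 and 0 to 1642 of all genes, the upper values all without the library labelled siRPL13 replicate 3. In the 5-library comparison the related lists had 11 higher and 39 lower. PPP1R15A passed under all 13 alternatives (0.51 to 0.59, adjusted p at most 0.0178), GDF15 and ATF4 under 11 and TRIB3 under 8. The count of the 10 that fell was 1 with a robust trend in place of 3, and library weights gave 2007 higher among all genes. Leaving out a further library gave 1 higher and 0 to 5 lower of the 10, 1 to 13 and 12 to 44 in the related lists, and 102 to 1734 and 141 to 2014 of all genes. The 5 were reached without siNC replicate 1 and the lowest counts without siRPL13 replicate 1, where the lone siRPL13 library is assumed to vary like the others. DDIT3 changed sign with library weights (-0.031, and -0.079 with 6 libraries) and in leave-one-out fits (-0.11 to 0.10, and -0.13 to 0.089 with 6 libraries), and CEBPB in leave-one-out fits with 6 libraries (-0.15 to 0.081); the cause was not tested. The deviations of same-numbered libraries from their group means had correlations across genes of 0.08, -0.43 and -0.33 for replicates 1 to 3. The siRPL13 mean includes the library labelled siRPL13 replicate 3, which sets the other siRPL13 deviations against it. These correlations therefore cannot decide whether the numbers pair the libraries. With the replicate block, 0 of the 10 passed with 6 libraries; with 5 libraries 1 rose and 4 fell, ATF3 being added (-0.24, adjusted p 0.0373), in a fit with 1 residual degree of freedom per gene. Depth is unknown, so no counting error can be given.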

Other observations

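Basic leucine zipper partners outside the ATF and C/EBP families also differed in both directions. Of 12 AP-1 partner genes, 3 rose, 3 fell and 6 did not pass in the 5-library comparison, with a median log2 difference of -0.08. The shares over all genes tested were 8.42% that rose and 10.7% that fell. FOSL1, a Fos-related partner of JUN, rose by 0.35 ± 0.08 (SE) and stood at 12.10, 12.10 and 12.12 in siRPL13 replicates 1 to 3 against 11.63, 11.70 and 11.94 in siNC. JUN, the central AP-1 subunit, rose by 0.30 ± 0.06, at 13.70, 13.65 and 13.57 against 13.29, 13.42 and 13.41. For both genes the library labelled siRPL13 replicate 3, in which RPL13 was not lowered, lay above every siNC library. NFE2L1, a factor that induces proteasome genes, fell by 0.40 ± 0.06, JUND by 0.37 ± 0.08 and MAFG, a small Maf partner, by 0.23 ± 0.06, and for these 3 genes that library lay above the middle siNC library. With all 6 libraries 0 of the 12 passed (limma). FOSL1 then differed by 0.35, JUN by 0.27, NFE2L1 by -0.24, JUND by -0.20 and MAFG by -0.11. On also leaving out siRPL13 replicate 1, 0 passed in either direction; on leaving out siRPL13 replicate 2 in its place, 1 was higher and 2 lower.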
